A study of Drosophila yakuba and Drosophila melanogaster with 20 samples.

Results

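The positions described here are the C-to-T and G-to-A differences from the genome that kept appearing in RNA from heads of adult Drosophila melanogaster. They were taken from the tables of base differences of 4 mock-treated RNA libraries, with upper and lower case of the differing base read as the same change. The positions were chosen by their presence in these tables: one on a nuclear chromosome was kept when 3 or 4 of the tables listed it. This gave 1513 positions, 1.43% of the 105686 nuclear C-to-T and G-to-A positions in the tables and a small part of the 1721894 nuclear differences of all kinds.

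The libraries came from adult heads of the strain y; cn, bw, sp, a combination of visible markers that is also carried by the strain sequenced for the reference genome. All 4 were mock-treated: the RNA went through the ICE (inosine chemical erasing) procedure without acrylonitrile, the reagent that modifies inosine so that reverse transcription stops there. HiSeq replicates 1 and 2 were read as 50-nt reads and NextSeq replicates 1 and 2 as 86-nt reads. The labels do not say that replicates came from separate flies, nor whether the same preparation was run on both instruments, so spreads between libraries may be technical. If one preparation per replicate number served both instruments, the 4 tables stand for 2 preparations. Any 3 of the 4 tables include both replicate numbers and both instruments.

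Each table gives the position, the base of the dm3 genome and the differing base, without read counts, so sequencing depth and the level of each difference are unknown. A position missing from a table may be uncovered or unchanged. The HiSeq libraries held 114525 (replicate 1) and 196310 (replicate 2) nuclear differences, the NextSeq libraries 418181 (replicate 1) and 1086668 (replicate 2). Gene and transcript annotation of dm3 was not used here. The defining markers of head tissue could not be checked, since no expression values were analysed.

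Hydrolytic deamination turns cytosine into uracil, which is read as thymine. Enzymes of the AID/APOBEC family do this to selected transcripts in vertebrates, where the edited apolipoprotein B messenger is the textbook case. A C deaminated in an RNA is read as C-to-T on the strand of its transcript, and as G-to-A on the forward genome strand when the transcript runs in reverse. A base that differs in the DNA of the flies can be either change on either strand of a transcript, and it can be read from both sides of the cDNA, as can a deaminated base once the cDNA is double-stranded. Strand relations, neighbouring changes and sequence around the positions are therefore the measurements that follow.

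Where the tables themselves spelled out the genome, several recurrent positions stood in runs of pyrimidines. The reference base is known at a position only if some table lists a difference there, and 8 windows around recurrent positions were known without a break over at least 14 bases. Of these, 6 are shown because they let the surroundings of 12 recurrent positions be read directly. They are written 5' to 3' on the strand where the changed base is C, and capitals mark the recurrent positions.
chr2L:4227702-4227717 (plus strand, dm3): tCttttCCCtttttct
chr2L:22247813-22247834 (minus strand, dm3): catctttCtttCttttctcaac
chr3R:21073182-21073200 (minus strand, dm3): accccaCttCCttttccgt
chr2L:5071000-5071013 (plus strand, dm3): ttcgctCttttcga
chr3R:13741887-13741900 (minus strand, dm3): aaaacagctcCaac
chr3RHet:162283-162298 (plus strand, dm3): atttgaaaCgtattaa

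The first window is pyrimidine throughout its 16 bases, and its 4 recurrent positions were C-to-T within 8 bp. The second holds 19 pyrimidines in 22 bases and the third 16 in 19, with 2 and 3 recurrent positions. The fourth window holds 11 pyrimidines in 14 bases. The fifth and the last have no such run, with 6 pyrimidines in 14 bases and 7 in 16. In the last window the single C-to-T position at 162291 was listed in both letter cases in all 4 libraries. The windows are not a sample of all recurrent positions, because an unbroken window needs a difference at every base.

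C-to-T and G-to-A were about equally frequent among the recurrent positions, with 783 C-to-T and 730 G-to-A. By construction each library lists most of them: HiSeq replicate 1 held 1266, HiSeq replicate 2 held 1354, NextSeq replicate 1 held 1239 and NextSeq replicate 2 held 1283. All 4 tables listed 603, and the 910 in 3 tables lacked NextSeq replicate 1 in 274 cases, HiSeq replicate 1 in 247, NextSeq replicate 2 in 230 and HiSeq replicate 2 in 159. No library was therefore the missing one for most of them. Just outside the threshold stood 8522 positions in 2 tables, 4304 of them C-to-T and 4218 G-to-A.

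The share of positions that recurred differed between kinds of change, and it chose the positions, so it is given as a description. Against the 1.43% of C-to-T and G-to-A, 1.28% of A-to-G and T-to-C positions were in 3 or 4 tables. For transversions (changes between a purine and a pyrimidine) the share was 0.375%, with 0.689% for C-to-A/G-to-T, 0.26% for A-to-T/T-to-A, 0.433% for C-to-G/G-to-C and 0.212% for A-to-C/T-to-G. In number, the recurrent transversions were 5563. The recurrent A-to-G and T-to-C positions were 573 on the authors' list of editing sites and 1104 outside it.

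The X chromosome held the most recurrent C-to-T and G-to-A positions of any arm, 492 (32.5%, exact 95% binomial interval 30.2 to 34.9). Arms 3L and 3R held 264 and 263, 2L held 206, 2R held 167 and the small chromosome 4 held 34. Another 87 lay on heterochromatin scaffolds, which carry the repeat-rich sequence near centromeres and of the Y.

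The X share was higher among recurrent positions than among positions of the same kind that stood in 1 table. By library it was 33.8% in HiSeq replicate 1, 32.6% in HiSeq replicate 2 and 32.0% in each NextSeq library, against 19.1% to 21.2% of the positions found in 1 library alone. The groups did not overlap. The libraries share many of the recurrent positions, with 603 in all 4, so their values are not independent. The mean difference was 12.6 percentage points ± 1.33 (SD, n = 4 libraries), higher in 4 of 4 libraries (exact sign-flip permutation test, two-sided, p = 0.13, the lowest that 4 libraries allow). Recurrent transversions also lay often on X (30.2%), and unlisted recurrent A-to-G and T-to-C positions less so (22.9%). Depth on X was not known, and its part in these shares was not tested.

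Heterochromatin scaffolds held 5.75% of the recurrent positions, against 1.58% of the C-to-T and G-to-A positions found in 1 table. For recurrent transversions the share was 3.29%, and for unlisted A-to-G/T-to-C positions 6.07%. On the scaffold XHet, 18 of 127 C-to-T and G-to-A positions (14.2%) were recurrent, 16 of these in all 4 tables, and they lay within 9046 bp. On arm X the corresponding share was 2.31% and on 2R 0.925%. On the other scaffolds it ran from 1.79% on 2LHet to 6.06% on YHet. For transversions the recurrent share was also higher on XHet, 2.30%, than on arm X, 0.571%.

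The balance of the 2 changes was even on most arms. On X, 244 were C-to-T and 248 G-to-A, on 2L the numbers were 101 and 105, on 3R 129 and 134, and on 2R 86 and 81. On 3L C-to-T was more frequent, 156 against 108 (59.1%, 52.9 to 65.1), and on chromosome 4 it was 25 against 9 (73.5%, 55.6 to 87.1). These 2 arms were singled out after their values were seen, and the intervals treat positions as independent and cover counting error only.

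**Figure D1:**
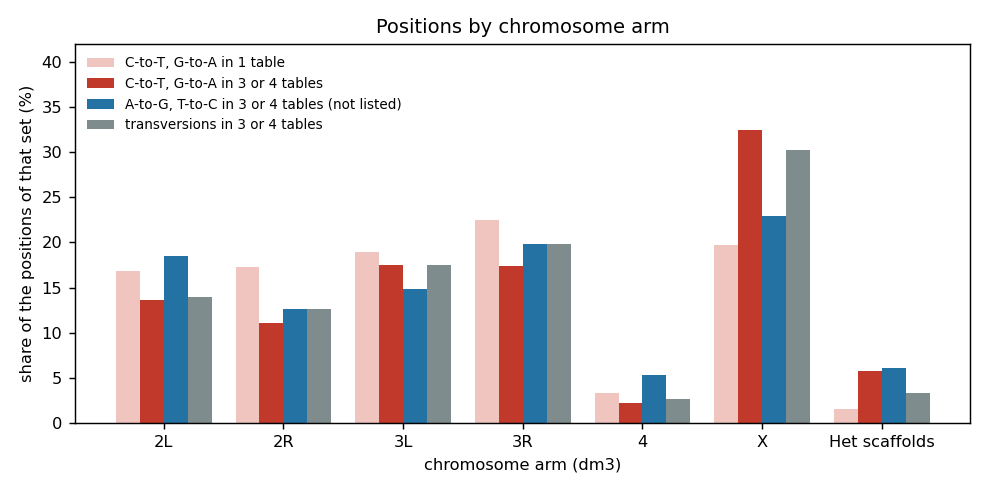
Share of each set of nuclear positions (%, bars) by chromosome arm, for C-to-T and G-to-A in 1 table, C-to-T and G-to-A in 3 or 4 tables, unlisted A-to-G/T-to-C in 3 or 4 tables, and transversions in 3 or 4 tables. X holds 32.5% of the recurrent C-to-T and G-to-A positions and 30.2% of the recurrent transversions, but 19.7% of the C-to-T and G-to-A positions found in 1 table.

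Neighbouring recurrent C-to-T and G-to-A positions lay a median of 28487 bp apart. Of the 1513, 1325 had no other recurrent position of this kind within 100 bp. The median was 15282 bp for the 1104 unlisted A-to-G/T-to-C positions, and 10480 to 352576 bp over the kinds of transversion. Such distances depend on the number of positions and on the sequence covered. No expected value was worked out, so they do not say whether the positions cluster. Joining at gaps of at most 100 bp gave 86 groups of 2 or more, which held 188 positions (12.4%), and no group held more than 4. Another recurrent difference of any kind lay within 100 bp of 547 positions (36.2%, 33.7 to 38.6). The corresponding share was 34.4% for transversions and 55.7% for unlisted A-to-G/T-to-C positions. Mapping allowed 4 mismatches, and unmapped reads were mapped again in a mode that treats A-to-G apart from other changes. The part of these settings in the group sizes, in these shares and in the agreement of close pairs was not tested.

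Within groups the 2 changes were often mixed. Of the 86 groups, 37 held both C-to-T and G-to-A. Among neighbouring pairs at most 100 bp apart, 59 of 102 (57.8%, 47.7 to 67.6) showed the same change and 43 showed opposite changes. For directly adjacent bases it was 5 of 11. Between 100 and 1000 bp the same change was shown by 90 of 144 pairs (62.5%, 54.1 to 70.4), and beyond 10000 bp by 472 of 935 (50.5%, 47.2 to 53.7).

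Agreement at close range varied between the other kinds of change. Unlisted recurrent A-to-G and T-to-C positions within 100 bp of each other had the same change in 205 of 217 pairs (94.5%, 90.5 to 97.1), and listed editing sites in 206 of 206. The list holds edited adenosines, which read A-to-G on the strand of their transcript. Listed pairs within a transcript therefore agree by the choice of sites. For recurrent C-to-A/G-to-T it was 135 of 186 pairs (72.6%, 65.6 to 78.9), and for A-to-T/T-to-A 88 of 145 (60.7%, 52.2 to 68.7). Recurrent A-to-C/T-to-G pairs showed the same change in 27 of 35 cases (77.1%, 59.9 to 89.6), and C-to-G/G-to-C pairs in 3 of 5. Pairs of all kinds of transversion together gave 253 of 371 (68.2%, 63.2 to 72.9). That share was just above the upper end of the C-to-T and G-to-A interval. The C-to-T and G-to-A interval did not meet that of the A-to-G and T-to-C pairs, and it overlapped the interval of every kind of transversion. Pairs are not replicates, and no test was made between kinds.

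**Figure D2:**
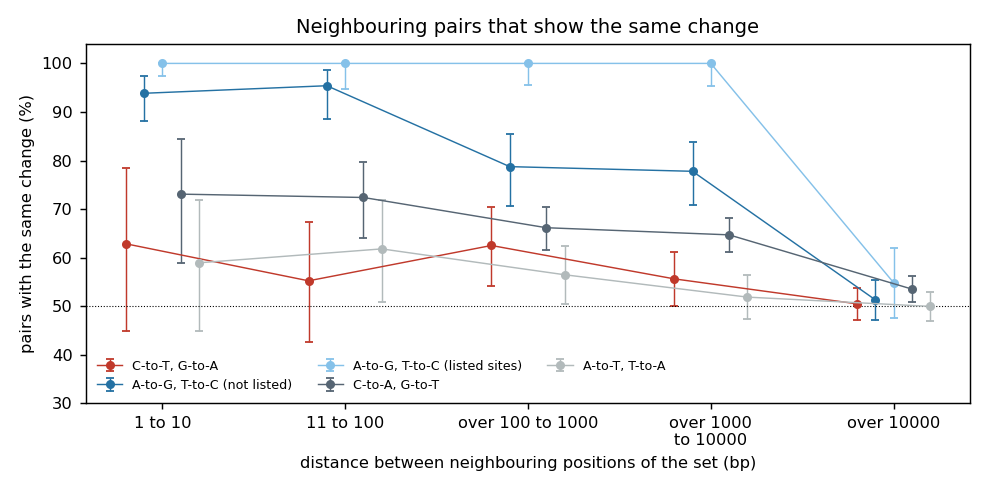
Percentage of neighbouring recurrent positions that show the same change (y axis), by the distance between them in bp (x axis), for 5 sets of positions in 3 or 4 tables. Points are shares with exact 95% binomial intervals, and the dotted line marks equal numbers of same and opposite pairs. C-to-T and G-to-A pairs lie between 50.5% and 62.9% at every distance, while unlisted A-to-G/T-to-C pairs fall from above 90% within 100 bp to 51.3% beyond 10000 bp.

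The 5 groups of 4 positions differed in their makeup. At 2L from 4227703 to 4227710, the first sequence printed above, all 4 were C-to-T. HiSeq replicate 2 listed all 4 of these, 3 of them in both letter cases, while HiSeq replicate 1 lacked 2 of them and NextSeq replicate 1 lacked 1. At 2L from 7831944 to 7832135 all 4 were G-to-A, and the one at 7832053 was in both letter cases in every library. At XHet from 192012 to 192164 all 4 were C-to-T, with both letter cases in every library at 192073 and 192164 and lower case throughout at 192146. The groups at 3L from 17394175 to 17394408 and at X from 11324037 to 11324126 held 2 and 3 C-to-T beside 2 and 1 G-to-A. None of the 5 groups contained a listed editing site or a recurrent A-to-G or T-to-C position. Recurrent transversions inside them numbered 2 at 2L 4227703, 0 at 2L 7831944, 3 on XHet, 1 on 3L and 2 on X.

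Joined at gaps of at most 1000 bp, a choice of display made after the data were seen, the richest stretch lay at 3L from 17393461 to 17394408. It held 7 C-to-T and 2 G-to-A positions in 948 bp, together with 19 recurrent transversions and 1 A-to-G or T-to-C position. The next 2 lay on XHet. From 189263 to 190007 there were 5 C-to-T and 3 G-to-A positions with 12 transversions and 2 A-to-G or T-to-C positions, and from 192012 to 193128 there were 5 C-to-T and 2 G-to-A with 10 transversions, 2 A-to-G or T-to-C positions and 1 listed editing site. In these stretches recurrent transversions outnumbered the C-to-T and G-to-A positions. They did so over all nuclear positions as well, 5563 against 1513, a larger ratio than in any of these stretches.

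The authors' list of D. melanogaster editing sites, 1238 positions where adenosine is deaminated to inosine, gave a reference for the strand of transcripts. Few recurrent C-to-T and G-to-A positions lay close to these sites. At 1000 bp their share was still above that of all nuclear differences, and at 100 bp it was about equal to it. Within 1000 bp lay 118 of 1513 (7.80%, 6.50 to 9.27), against 5.9% of all nuclear differences, 8.27% of recurrent transversions and 30.2% of unlisted recurrent A-to-G and T-to-C positions. Within 100 bp it was 15 positions (0.991%, 0.556 to 1.63), against 1.02% of all differences and 17.8% of the unlisted A-to-G/T-to-C positions. The median distance to a listed site was 57806 bp, and the closest was 6 bp away.

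Near listed sites the 2 changes lay on both strands of the edited transcripts. The edited base was known at 1084 listed sites, A for a transcript of the forward strand and T for one of the reverse strand. Within 1000 bp of such a site lay 115 recurrent positions, spread over 81 tracts of sites joined at gaps of at most 10000 bp. On the edited strand 52 of them read C-to-T (45.2%, 35.9 to 54.8) and 63 read G-to-A. Positions listed in both letter cases in at least 1 library read C-to-T in 22 of 65 cases (33.8%, 22.6 to 46.6), and those listed in 1 case per library in 30 of 50 (60%, 45.2 to 73.6), a split made after the data were seen. By tract, 27 held C-to-T alone, 41 held G-to-A alone and 13 held both. Within 10000 bp the numbers were 174 and 208 (45.5%, 40.5 to 50.7 for C-to-T).

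Positions listed less often had a higher share of C-to-T on the edited strand. Among C-to-T and G-to-A positions in 1 table it was 3140 of 5403 (58.1%, 56.8 to 59.4) within 1000 bp of a listed site, and it was 338 of 561 (60.2%, 56.1 to 64.3) among those in 2 tables. The share was 33 of 70 (47.1%, 35.1 to 59.4) in 3 tables and 19 of 45 (42.2%, 27.7 to 57.8) in all 4. Library by library, the recurrent positions gave 45.8% (replicate 1) and 46.2% (replicate 2) on HiSeq, and on NextSeq 44.7% (replicate 1) and 42.6% (replicate 2). Positions found in that library alone gave, in the same order, 58.1%, 54.3%, 63.0% and 59.7%, and the 2 sets of values did not overlap. The recurrent share was lower in 4 of 4 libraries, with a mean difference of -14.0 points ± 4.72 (SD, n = 4; two-sided exact sign-flip permutation test, p = 0.13, again the lowest possible). The 4 libraries share many of the recurrent positions, so their values are not independent.

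Among other recurrent kinds, unlisted A-to-G differences lay on the edited strand at 318 of 329 positions (96.7%, 94.1 to 98.3). C-to-A lay on it at 171 of 213 positions (80.3%, 74.3 to 85.4), the remainder reading G-to-T. A-to-T lay on it at 67 of 178 positions (37.6%, 30.5 to 45.2), so that T-to-A was the more frequent of that pair. A-to-C lay on it at 26 of 35 positions (74.3%, 56.7 to 87.5) and C-to-G at 10 of 15 (66.7%, 38.4 to 88.2), an interval that includes 50%.

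**Figure D3:**
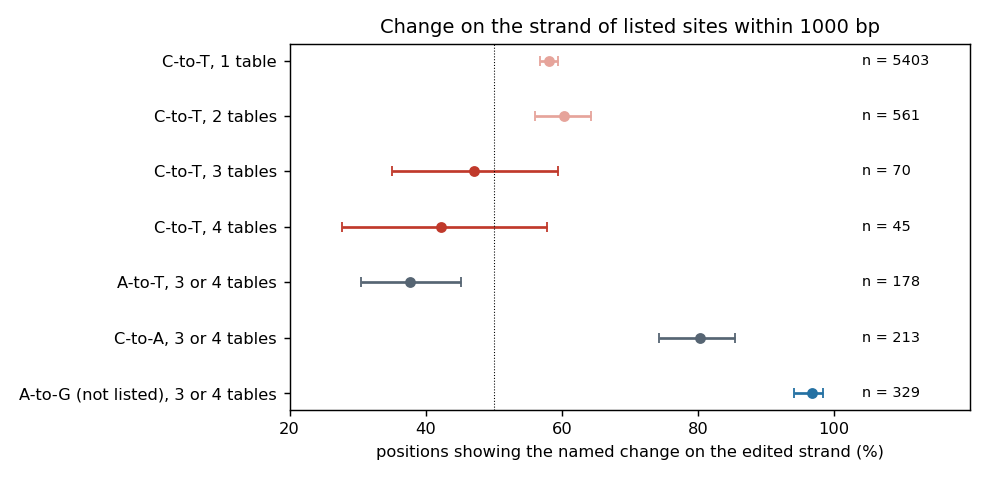
Percentage of positions within 1000 bp of a listed editing site that show the named change, rather than its reverse complement, on the strand of that site (x axis), for 7 sets of positions (rows, with n). Points are shares with exact 95% binomial intervals and the dotted line marks equal numbers. The intervals of C-to-T in 3 tables (47.1%) and in 4 tables (42.2%) include the line, while C-to-A (80.3%) and unlisted A-to-G (96.7%) lie to the right of it.

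Of the 15 positions within 100 bp of a listed site, 6 read C-to-T and 9 read G-to-A on the edited strand. Those in all 4 tables were 3. At X position 3235406 a C-to-T stood 59 bp from a site and read C-to-T on the edited strand. At 3L the G-to-A at 4433246 was 73 bp from a site with edited base A, and the C-to-T at 9147038 was 100 bp from a site with edited base T, so both read G-to-A on the edited strand.

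Letter case gave a further measure. The choice of positions did not use it directly, but the share in both cases rose with the number of tables, which did choose them. In a SAMtools pileup upper case marks forward and lower case reverse reads, and the case was read in that way here, although the files do not define it. The recurrent positions were listed in both cases in 359 of 1266 (28.4%) in HiSeq replicate 1, 481 of 1354 (35.5%) in HiSeq replicate 2, 314 of 1239 (25.3%) in NextSeq replicate 1 and 402 of 1283 (31.3%) in NextSeq replicate 2. The mean was 30.1% ± 4.34 (SD, n = 4). Both libraries of replicate 2 were above both libraries of replicate 1. The share was 1.78% to 5.19% at positions just outside the threshold, in 2 tables, against 12.1% to 22.8% in 3 tables and 39.3% to 51.4% in 4. It rose in the same way for C-to-A/G-to-T, from 1.17% to 5.10% in 2 tables to 47.9% to 55.8% in 4. The both-case share is therefore tied to the rule that chose the positions.

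At least 1 library showed both cases at 791 recurrent positions (52.3%), against 1.79% of all C-to-T and G-to-A positions. Of all these positions, 95651 were in 1 table and so had 1 library in which to show both cases. The recurrent positions had more, and they are themselves part of the whole. The comparison is therefore tied to the rule that chose the positions. Per library, 0.422% to 0.647% of the positions in 1 table were in both cases. Another 470 recurrent positions were listed in one and the same case in every library that had them, and 252 were in upper case in some libraries and in lower case in others. The share with both cases was 57.1% on X (52.6 to 61.5), 47.3% on 2R (39.5 to 55.2), 50% on 2L, 48.9% on 3L and 51.0% on 3R. On chromosome 4 it was 41.2% (24.6 to 59.3). It was 58.6% on all heterochromatin scaffolds together, with 17 of 18 positions on XHet and 7 of 20 on 3LHet.

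The both-case share stood between those of other recurrent kinds. It was above that of unlisted recurrent A-to-G/T-to-C positions, which ran from 14.1% in HiSeq replicate 1 to 23.3% in HiSeq replicate 2. The difference was 11.6 points ± 2.03 (SD, n = 4), with the same sign in 4 of 4 libraries (two-sided exact sign-flip permutation test, p = 0.13). Listed editing sites in 3 or 4 tables had 41.3% to 73.8%, higher than the C-to-T and G-to-A positions in 4 of 4 libraries (difference -26.9 points ± 14.1, SD, n = 4; exact p = 0.13). By kind of transversion the mean difference was -4.35 points from C-to-A/G-to-T, which had the higher share in 4 of 4 libraries (exact p = 0.13). From A-to-T/T-to-A it was 4.08 points, from C-to-G/G-to-C 21.3 and from A-to-C/T-to-G 22.8. Each of these 3 kinds was lower in 4 of 4 (exact p = 0.13 for each). For A-to-T/T-to-A this held among positions in 3 tables, but not among those in all 4. There A-to-T/T-to-A had 44.0% against 43.0% (HiSeq replicate 1), 42.2% against 39.3% (NextSeq replicate 1) and 47.2% against 45.8% (NextSeq replicate 2). HiSeq replicate 2 kept the first order, with 48.5% against 51.4%. C-to-G/G-to-C and A-to-C/T-to-G stayed lower there in each library. Against all transversions together the difference was 2.05 points ± 1.22 (SD, n = 4; exact p = 0.13), and it turned to -2.24 points among positions in all 4 tables (exact p = 0.25). It also turned to -2.07 points without positions that listed several differing bases, to -1.51 points without NextSeq replicate 1 and to -1.70 points without NextSeq replicate 2. The libraries share many recurrent positions of each kind, so the values in these comparisons are not independent.

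The both-case shares of the HiSeq and NextSeq libraries overlapped. Their means were 31.9% ± 5.07 (SD, n = 2) for HiSeq against 28.3% ± 4.24 (SD, n = 2) for NextSeq, 3.60 points apart (two-sided exact permutation test over libraries, p = 0.667, where 0.33 is the lowest that 2 against 2 allows). Leaving out NextSeq replicate 1 turned it to -0.855 points. Within replicate numbers it was 3.01 and 4.19 points, whereas replicate 2 exceeded replicate 1 by 7.17 points on HiSeq and 5.99 points on NextSeq.

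**Figure D4:**
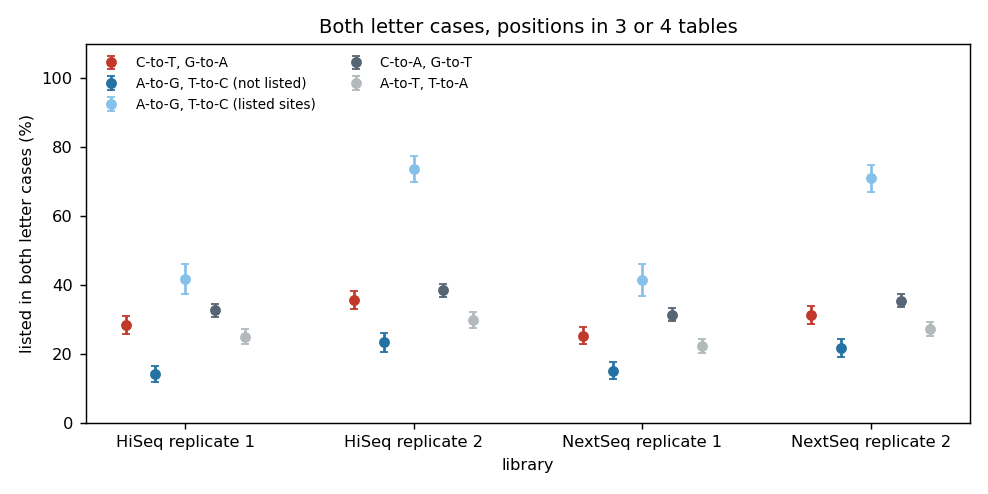
Percentage of recurrent positions listed in both letter cases (y axis) in each of the 4 libraries (x axis), for 5 sets of positions in 3 or 4 tables. Points are shares with exact 95% binomial intervals. C-to-T and G-to-A positions lie at 28.4%, 35.5%, 25.3% and 31.3%, above unlisted A-to-G/T-to-C positions and below listed editing sites in each library.

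Positions listed in 1 case were also compared in the sense of the read. In HiSeq replicate 1, 450 read as C-to-T and 457 as G-to-A once lower case was complemented. The numbers were 479 and 394 in HiSeq replicate 2 (54.9% C-to-T, 51.5 to 58.2), 462 and 463 in NextSeq replicate 1, and 463 and 418 in NextSeq replicate 2. HiSeq replicate 2 was the one library whose interval left out 50%. Recurrent C-to-A/G-to-T positions read as C-to-A in 58.0% to 60.9% of such cases.

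The case was repeated between libraries. Among recurrent positions with 1 case in both of a pair of libraries, the case was the same in 462 of 549 (84.2%, 80.8 to 87.1) for the libraries of replicate number 1 and in 417 of 550 (75.8%, 72.0 to 79.3) for those of number 2. The other 4 pairs of libraries gave 71.1% to 73.7%. For transversions the same-number pairs gave 83.5% and 75.4% and the other pairs 68.5% to 73.4%.

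Many recurrent positions listed a further differing base. Another base was listed in at least 1 table at 411 positions (27.2%), against 13.6% of all C-to-T and G-to-A positions. The share was 13.1% for positions in 1 table, 16.8% in 2, 25.1% in 3 and 30.3% in 4. It was 12.8% for recurrent transversions together, but 36.5% for C-to-G/G-to-C and 26.8% for A-to-C/T-to-G, against 9.93% for C-to-A/G-to-T and 10.7% for A-to-T/T-to-A. For unlisted recurrent A-to-G/T-to-C positions it was 19.2%. The additional base was A at a C or T at a G in 362 cases, 252 of them at G-to-A positions and 110 at C-to-T positions. Of these 362, 30 were themselves in 3 or 4 tables. Depth at these positions is unknown, and its part in these shares was not tested.

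The bases around the changed C were rich in T, as in the pyrimidine runs printed above. On the strand where the changed base is C, T made up 44.1% (42.7 to 45.5) and A 24.0% of 4924 known bases at 3 to 10 bases from recurrent positions. Around positions in 1 table T made up 31.5% (31.3 to 31.7) and A 32.4% of 223291 known bases. Directly 5' of recurrent positions T stood at 192 of 401 known bases (47.9%, 42.9 to 52.9) and G at 64 (16.0%, 12.5 to 19.9). Directly 3' of them T stood at 180 of 421 (42.8%, 38.0 to 47.6) and G, which would make the dinucleotide CG, at 73 (17.3%, 13.8 to 21.3), against 15.2% of bases farther away.

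The positions in all 4 tables had the highest T shares. T made up 55.6% of 171 known bases 5' of them and 53.0% of 166 bases 3' of them, against 48.1% farther away. In 3 tables the shares were 42.2%, 36.1% and 41.2%. Where both neighbours were known, T stood on both sides at 34 of 156 recurrent positions (21.8%, 15.6 to 29.1), against 408 of 6388 positions in 1 table (6.39%, 5.80 to 7.01). Of the other recurrent kinds, several also had more of their own new base beside them than positions of the same kind in 1 table. The new base, T for a changed C here, made up 45.3% of 822 known bases directly beside recurrent C-to-T and G-to-A positions, against 24.9% in 1 table. For C-to-A/G-to-T the new base stood at 55.2% against 32.0%, for A-to-T/T-to-A at 43.9% against 24.0% and for A-to-C/T-to-G at 37.5% against 27.1%. For C-to-G/G-to-C it was 25.3% against 24.9%, and for all A-to-G/T-to-C positions, listed sites included, it was lower, 9.09% against 17.5%. Recurrent C-to-A positions had A at 58.9% and T at 8.52% of 845 known bases on the 5' side. Known bases are those at which some table lists a difference, so these shares describe that selection of bases.

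**Figure D5:**
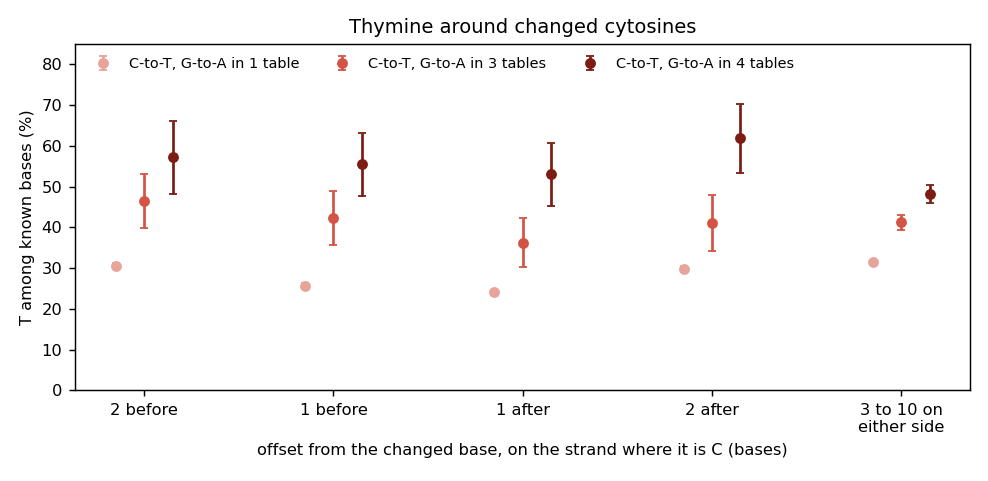
Percentage of T among known bases (y axis) at 2 and 1 bases before and after the changed C, and at 3 to 10 bases on either side (x axis), for C-to-T and G-to-A positions in 1, 3 and 4 tables. Points are shares with exact 95% binomial intervals, on the strand where the changed base is C. Positions in 4 tables lie between 48.1% and 62.0%, and positions in 1 table between 24.0% and 31.5%.

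The most consistently listed positions were 93 (6.15%) that appeared in both letter cases in all 4 libraries. They comprised 56 C-to-T and 37 G-to-A, with 34 on X, 20 on 2L and 14 on heterochromatin scaffolds, 11 of these on XHet. Another recurrent C-to-T or G-to-A position lay within 100 bp of 20 of them, and those 20 are the ones described next.

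Neighbouring positions of this class showed like and unlike changes. At X 8919304 and 8919323 both were C-to-T, and at 2L 12456565 and 12456639 both were C-to-T as well. At 3L 3957656 was C-to-T and 3957665 was G-to-A. At XHet 189617 was G-to-A and 189638 was C-to-T, with 6 and 5 recurrent transversions within 100 bp of them.

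Recurrent transversions around these 20 positions ranged from none to 7 within 100 bp. The positions at 192073 and 192164 on XHet, 1004520 on 2RHet and 162291 on 3RHet had 4 to 6 recurrent transversions within 100 bp. On 2L, those at 4876167, 5046472, 7832053, 12456565 and 12456639 had none, and neither had 5278026 on 3R or 5071362, 8919304, 8919323 and 9080880 on X. On 3L, 10851209 had none, and 3957656 and 3957665 had 1 each. The position 19045 on X had 7, more than any of the scaffold positions. Distances to the nearest listed editing site ranged from 365 bp at 3R 5278026 to 1789120 bp at 3RHet 162291.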

How the data were processed

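Per the labels' protocols, which are attached to these libraries but name D. yakuba strains, 5 µg of total RNA from about 50 heads was oligo(dT)-selected and fragmented, and the mock treatment ran at 70 °C for 1 h. Reads were mapped by the authors to BDGP R5 (dm3) with TopHat 2.0.6 and Bowtie 2.0.2 (4 mismatches, 1 alignment per read), and unmapped reads with bsmap 2.74 (3 mismatches, in a mode that treats A-to-G apart from other changes), per the labels' protocols. The submitters' processing notes also list SAMtools 0.1.19. The sources used here do not give the calling step. The deposited tables hold positions and bases, with no counts, scores or strand.

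Lines with upper and lower case of one base were joined, chrM was left out, and positions in 3 or more tables were kept. The members, comparisons and settings were chosen with earlier results of these data known. Positions named are those in both cases in all 4 libraries (up to 20, ranked by other members within 100 bp) and the 5 largest groups at gaps of at most 100 bp. The sequence windows, the comparison with positions in 1 table and the groups at 1000 bp were added after the data were seen. The windows replace a planned set around the named positions, most of whose neighbouring bases are not known, and windows on arm 2R are not printed. Shares have exact (Clopper-Pearson) 95% binomial intervals for counting error, which treat positions as independent. Libraries were compared by exact permutation.

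Libraries with the same number may share a preparation, but whether they do is not stated. The other 16 libraries and the D. yakuba site list were not analysed here. The 5 simulated steps gave back their planted values. Python 3.11.15, numpy 2.4.6, pandas 2.3.3, scipy 1.17.1 and matplotlib 3.10.9 were used.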

Additional observations from a re-analysis of the deposited data

How the results depend on the processing

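The number of recurrent positions depended on the threshold by construction: 603 in all 4 tables, 10035 in 2 or more, and 762 to 877 when a library was left out and the other 3 had to agree. With it the both-case share (mean over libraries) moved to 44.9% in all 4 tables, 9.88% in 2 or more, and 36.6% to 37.7% without a library. C-to-T on the edited strand was 57.7% with 2 or more tables and 33.8% for positions in both cases in at least 1 library, an alternative chosen after seeing the data, and 40.7% to 47.0% without a library. T 5' of the positions was 55.6% in all 4 tables, 32.5% in 2 or more, 42.8% without positions of several bases, and 50.4% to 53.4% without a library. The share within 1000 bp of a listed site became 0.991% at 100 bp and 26.8% at 10000 bp, by the distance itself. The HiSeq minus NextSeq difference ranged from -0.855 to 9.94 points without a library, and the replicate block left it at 3.60 points (exact sign-flip p = 0.5, the smallest 2 pairs can give). The difference from transversions, an added comparison, was -2.24 points in all 4 tables, -2.07 points without positions of several bases, and -1.70 to 2.42 points without a library. The cause of these moves was not tested. The share of close pairs with the same change stayed within its interval under the 10 alternatives run. Without read counts no depth limit can be given.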
